A study of Mus musculus with 20 samples.

Results

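Genes of mitosis and of the G2/M transition were followed through 20 RNA-seq libraries of embryonic mouse heart in which floxed Kmt2d, the gene of an H3K4 methyltransferase, was deleted by 1 of 3 Cre lines. The set is a list of 35 gene symbols, and all 35 were found in the gene symbol column of the counts table, among 33495 genes in all. It holds the A- and B-type cyclins, the CDC25 phosphatases and APC/C factors, mitotic kinases, the chromosomal passenger complex, kinesins, centromere and kinetochore proteins, spindle and cytokinesis factors, and Top2a and Mki67. Each gene was detected in each library, with 132 reads at the lowest, and each passed the filter on low counts in each comparison.

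Cells enter mitosis when cyclin B binds and activates CDK1, whose inhibitory phosphates are removed by CDC25 phosphatases. Aurora and Polo-like kinases then build the spindle, the kinetochore checkpoint holds anaphase back until chromosomes are attached, and the APC/C with its activator CDC20 and the ubiquitin-conjugating enzyme UBE2C destroys the cyclins. The RNAs of these proteins rise together in G2 and M, so in a tissue they mark the share of dividing cells, which in the embryonic heart includes cardiomyocytes, endocardial and mesenchymal cells and circulating primitive erythroblasts. In bulk RNA, fewer cells of a type and less RNA per cell cannot be told apart.

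Whole hearts labelled E9.0 were sequenced for Mesp1Cre, which is active in early cardiac mesoderm, with 4 mutants and 4 controls. Right ventricles with outflow tracts at E11.5 were sequenced for Mef2cAHF::Cre, active in anterior heart field precursors, with 3 libraries labelled mutant and 3 labelled control. Whole hearts at E11.5 were sequenced for Tnnt2::Cre, active in cardiomyocytes, with 3 mutants and 3 controls. All embryos were C57BL/6 and carried Cre and 1 mTmG reporter allele; mutants were Kmt2d fl/fl and controls Kmt2d fl/+, so controls had lost 1 allele and mutants both in the cells that the Cre reaches. Cells outside the Cre lineage stay in each sample. For Mesp1Cre the stage labels (E9.0) and the protocol text (E11.5) disagree, and the labels were followed. For Mef2cAHF::Cre the titles, genotype labels and upper header line name as mutant the libraries that the lower header line, with the column names, calls wild type, and the reverse. The titles were followed here, and by the column names each sign given for this line reverses. The labels do not say whether the libraries of a group came from separate embryos, so p-values measure the spread between these libraries, which may be partly technical.

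Between 21727258 and 45341870 reads were counted per library. Kmt2d, listed as Mll2, had 155 ± 5.06 CPM (reads scaled to a common library size) in the 4 Mesp1Cre controls and 133 ± 7.39 in the 4 mutants, as mean ± SD, with no overlap (log2 fold change -0.21, FDR 0.0764 by edgeR). Tnnt2::Cre mutants had 118 ± 4.28 CPM and controls 149 ± 21.1 (SD, n = 3 each). In Mef2cAHF::Cre the direction went against the labels, with 187 ± 5.49 CPM in the libraries labelled mutant and 149 ± 7.02 in those labelled control (SD, n = 3 each). Cardiomyocyte markers were high in all libraries (mean log2 CPM 9.6 to 10.91). The erythroid list of 13 measured genes, hemoglobin and other red cell genes, ranged from a mean log2 CPM of 4.21 to 10.2, and hemoglobin genes took from 0.205% to 14.6% of reads. Male embryos, by Y-linked counts, were 4 of 4 Mesp1Cre mutants and 2 of 4 controls, 0 of 3 libraries labelled mutant and 1 of 3 labelled control in Mef2cAHF::Cre, and 1 of 3 Tnnt2::Cre mutants and 2 of 3 controls. Tnnt2::Cre mutant replicate 1 stood apart from the other Tnnt2::Cre mutants in mitotic and in erythroid RNA, and results for this line are given with and without it.

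The promoters of these genes are known for CCAAT boxes, which bind NF-Y, and for the cell cycle genes homology region (CHR), which binds the DREAM and MuvB complexes. RefSeq windows on GRCm38.p6, from 250 bases before to 50 after the start site, were found for 29 of the 35 genes (31 windows, since Ect2 and Prc1 have more than 1) and were searched on both strands. Aurkb, Ccna2, Cdc25c, Incenp, Kif20a and Tpx2 had no window in the table. CCAAT was present in 27 of the 31 windows (87.1%) against 37.4% of all 32544 RefSeq windows, and more than 1 CCAAT in 61.3% against 11.6%. The CHR, searched as TTTGAA and TTCGAA, was present in 26 windows (83.9%) against 19.1% of all windows. Both motifs occurred together in 77.4% of the windows and in 7.5% of all. In 18 windows (58.1%) a CHR began within bases 1 to 45 after the start site, against 2.47% of all windows, and in 8 (25.8%) a pair of CCAAT boxes began 31 to 35 bases apart, against 1.34%. These last positions were set after the windows had been seen, and a match is only a match of letters.

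The 150 bases before the start site are shown for the genes that lead the genotype comparisons, so that the shared elements can be seen beside the values, with CCAAT and CHR matches in capitals. They lie on GRCm38.p6 at chr11:117849087-117849236 (+ strand) for Birc5, chr9:61946800-61946949 (- strand) for Kif23, chr2:172370571-172370720 (- strand) for Aurka, chr7:135716380-135716529 (- strand) for Mki67, chr6:124830026-124830175 (+ strand) for Cdca3, chr9:70421555-70421704 (- strand) for Ccnb2, chr4:117178773-117178922 (- strand) for Kif2c and chr11:102925125-102925274 (- strand) for Kif18b, each printed 5′ to 3′ on the gene's strand.
Birc5: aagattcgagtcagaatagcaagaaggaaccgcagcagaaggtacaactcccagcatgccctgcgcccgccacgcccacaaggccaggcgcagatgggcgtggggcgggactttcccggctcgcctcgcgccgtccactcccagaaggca
Kif23: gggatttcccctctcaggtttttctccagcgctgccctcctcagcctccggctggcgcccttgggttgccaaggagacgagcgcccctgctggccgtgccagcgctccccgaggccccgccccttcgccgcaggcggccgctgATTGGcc
Aurka: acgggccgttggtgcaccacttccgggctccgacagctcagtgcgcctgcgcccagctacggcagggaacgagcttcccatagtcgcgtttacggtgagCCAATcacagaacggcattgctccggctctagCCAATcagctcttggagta
Mki67: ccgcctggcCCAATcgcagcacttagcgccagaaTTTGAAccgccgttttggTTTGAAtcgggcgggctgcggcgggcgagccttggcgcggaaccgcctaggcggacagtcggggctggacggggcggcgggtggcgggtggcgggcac
Cdca3: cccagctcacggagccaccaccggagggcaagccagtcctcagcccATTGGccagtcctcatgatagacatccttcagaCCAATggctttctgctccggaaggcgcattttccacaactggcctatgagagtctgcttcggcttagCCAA
Ccnb2: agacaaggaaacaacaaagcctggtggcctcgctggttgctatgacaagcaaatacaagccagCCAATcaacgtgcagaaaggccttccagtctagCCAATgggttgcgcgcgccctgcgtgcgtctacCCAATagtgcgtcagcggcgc
Kif2c: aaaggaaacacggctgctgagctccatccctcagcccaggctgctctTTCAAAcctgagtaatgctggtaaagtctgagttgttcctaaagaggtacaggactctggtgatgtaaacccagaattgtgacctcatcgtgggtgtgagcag
Kif18b: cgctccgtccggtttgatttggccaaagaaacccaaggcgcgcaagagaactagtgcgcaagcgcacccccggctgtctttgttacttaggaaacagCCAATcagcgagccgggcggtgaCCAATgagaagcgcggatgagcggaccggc
Aurka has CCAAT boxes that begin at -51 and -19, Ccnb2 at -87, -54 and -21, and Cdca3 at -104 and -71, with one more at -4 that runs over the start site and is shown in part. Kif18b has CCAAT boxes at -53 and -30 and its CHR match at base 4 after the start, outside the stretch shown. Also outside it, CHR matches begin after the start at base 33 in Aurka, 31 in Cdca3 and 3 in Kif23. Ccnb2 has them at -167 and at base 5 after the start. In Mki67, which has CHR matches at -116 and -98, the boxes lie farther upstream, at -188, -166 and -141. Birc5 has neither motif in its window of 300 bases, and Kif2c has a CHR at -103 and no CCAAT.

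The highest of the 35 per transcript length in E9.0 control hearts was Ube2c, at 166 ± 8.57 FPKM (fragments per kilobase of transcript, scaled to library depth; SD, n = 4). Ccna2, cyclin A2, followed at 76.7 ± 2.96 FPKM, and Mki67, the gene of the Ki-67 proliferation antigen, at 73.9 ± 6.06, which do not differ beyond their spread. Top2a, the topoisomerase that untangles sister chromatids, had 61.4 ± 1.91 FPKM, and Cdc25b was the lowest at 2.57 ± 0.778. In E11.5 control hearts Mki67 was the highest at 124 ± 29.8 FPKM (SD, n = 3), above Ube2c at 82.1 ± 2.5 and Ccna2 at 80.9 ± 6.54. Kif2c, which codes for the microtubule-depolymerising kinesin MCAK, was then the lowest at 6.08 ± 0.361 FPKM. In the libraries of Mef2cAHF::Cre labelled control Mki67 also led, at 114 ± 17.3 FPKM (SD, n = 3), before Ube2c at 95.7 ± 7.72, and Cdc25b was again the lowest at 4.37 ± 1.17.

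**Figure D1:**
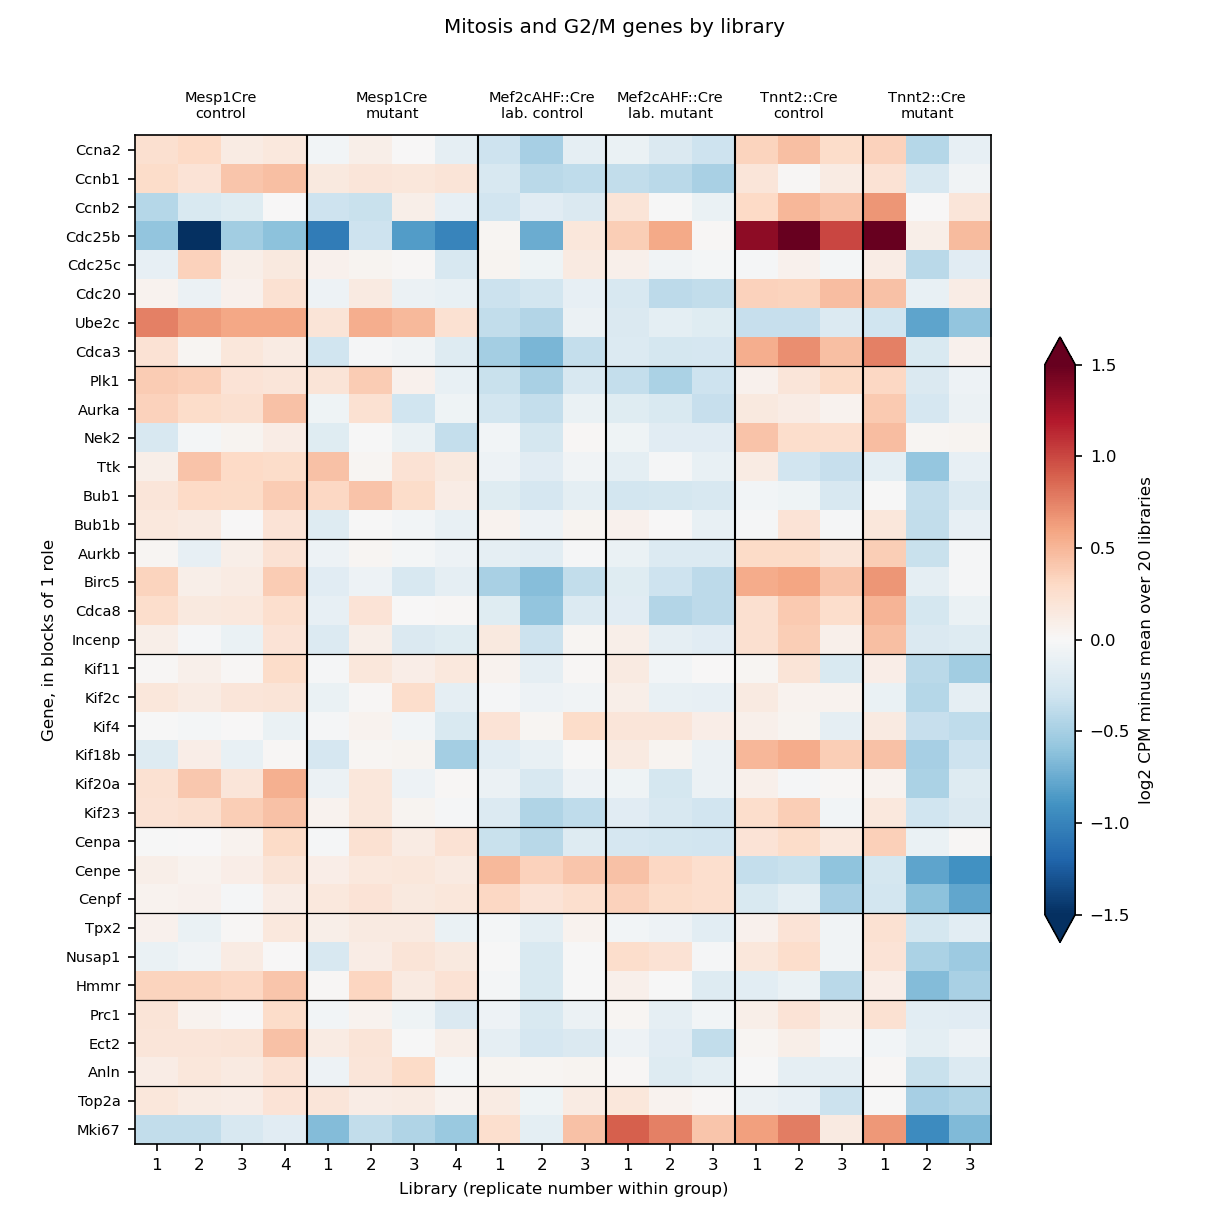
Level of each of the 35 genes in each of the 20 libraries, as log2 CPM minus the gene's mean over the 20 libraries, in columns by group (lab.: as labelled) and replicate and in blocks of genes of 1 role. Cdc25b and Mki67 vary most, Ube2c is highest in the E9.0 hearts, and Tnnt2::Cre mutants 2 and 3 are low across the blocks while mutant 1 is not.

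The comparison of Mesp1Cre mutants with controls asks how the early mesodermal deletion bears on these genes at E9.0. Of the 35 genes, 1 passed an FDR of 0.05 (edgeR quasi-likelihood F test, Benjamini-Hochberg over all genes tested): Birc5, which was lower in mutants. Over all 15883 genes tested, 5.29% passed as lower and 6.17% as higher, so 1 of 35 is below the background. Small fitted decreases were common, in 26 of 35 genes against 50.2% of all genes. At an unadjusted p under 0.05, 12 genes were lower and 0 higher, against 13.6% lower and 13.3% higher over all genes. The median log2 fold change was -0.14, with 0 over all genes. On the deposited FPKM, where the median of all genes lay at 0.15, the median of the set was 0.02 and 14 genes were below 0, so the position below other genes remained while the sign did not.

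Birc5 codes for survivin, the subunit that brings the chromosomal passenger complex to the centromere. The gene lies at chr11:117710564-117717057 of mm9, on the + strand. Its CPM in the 4 controls were 92.7, 78.3, 80.2 and 95.5, and in the 4 mutants 65.3, 69.4, 62.3 and 66.8. All mutants lay below all controls, with a log2 fold change of -0.39 (SE 0.09, FDR 0.0159). The FDR ran from 0.00111 to 0.179 over 11 alternatives with all libraries and from 0.0193 to 0.0536 with 1 library left out. The other subunits of the complex had log2 fold changes of -0.17 for Cdca8, -0.17 for Incenp and -0.09 for Aurkb, and none of these passed the test.

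Aurka and Kif23 came next. Aurka, the kinase of centrosome maturation, had 45.1, 43, 42 and 48.2 CPM in controls and 33.9, 41.5, 28.9 and 33.8 in mutants, without overlap (log2 fold change -0.36, SE 0.12, FDR 0.0678). Kif23, a kinesin of the central spindle needed for cytokinesis, had 112, 114, 124 and 130 CPM in controls. In mutants it had 100, 108, 99.3 and 94.6 CPM (log2 fold change -0.25, SE 0.08, FDR 0.0651). In 9 of the 35 genes all mutants lay below all controls, against 8.8% of all genes tested; besides Birc5, Aurka and Kif23 these were Ccna2, Ccnb1, Ube2c, Cdca3, Bub1b and Kif20a, which codes for a kinesin that carries the passenger complex to the midzone. Cenpf, a kinetochore protein, was the exception with all mutants above all controls, at 228 to 250 CPM in controls and 256 to 266 in mutants, where 8.93% of all genes did so (log2 fold change 0.12, SE 0.06, FDR 0.239).

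By role, the log2 fold changes lay below 0 in 4 of 4 passenger complex genes, 5 of 6 kinases, 5 of 6 kinesins, 3 of 3 cytokinesis genes and 6 of 8 cyclin, CDC25 and APC/C genes. They lay above 0 in 3 of 3 centromere and kinetochore genes, from 0.03 to 0.12, and in 2 of 3 spindle assembly genes, with a range from -0.18 to 0.06. Top2a (-0.03, SE 0.06) and Kif11 (0.01, SE 0.08), the motor that separates spindle poles, were near 0. Over all genes tested 5.29% passed as lower and 6.17% as higher, and the counts in the other pathway lists are to be read beside these shares. With 1 or 2 genes per list, they are not read as a result about the lists. Among these genes, 1 of 9 Cdk1 control genes passed the test, Cdk1 itself (listed as Cdc2a), which was lower (log2 fold change -0.32, SE 0.09, FDR 0.0444). Of 12 kinetochore and checkpoint genes 2 passed, both lower: Nuf2, a subunit of the NDC80 complex (-0.36, SE 0.11, FDR 0.0443), and Mad2l1, the checkpoint protein MAD2 (-0.43, SE 0.11, FDR 0.0211). Of 12 tested regulators of G2/M transcription 1 passed, Rbl2, the p130 subunit of DREAM, which was higher (0.50, SE 0.14, FDR 0.0397). None of 11 APC/C, 16 condensin and cohesin and 20 other mitotic genes passed, with 2, 3 and 6 of them at an unadjusted p under 0.05, where 26.9% of all genes were. Of 5 tested CDK inhibitors 1 passed, Cdkn1b, the gene of p27, which was higher (0.72, SE 0.15, FDR 0.00882).

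Erythroid and endothelial RNA, mitochondrial reads and sex moved with genotype in this line. Of 13 erythroid genes 11 were lower and 2 higher in the fit, and 5 passed the test, all lower, with a median log2 fold change of -1.24; the summed list ran from a mean log2 CPM of 4.21 to 6.14 in mutants and from 5.18 to 6.75 in controls. Of 7 endothelial genes 6 were higher in the fit and 3 passed the test, all higher, led by Kdr, a VEGF receptor (log2 fold change 0.74, SE 0.08, FDR 0.000137); the mean log2 CPM of that list was 6.21 to 6.51 in mutants and 5.90 to 6.22 in controls. Mitochondrial genes took 13.3% to 15.7% of reads in mutants and 22% to 23.4% in controls. The part of endothelial RNA in the differences was not tested. That of mitochondrial RNA was not tested beyond a fit without hemoglobin and mitochondrial genes, in which Birc5, Aurka and Kif23 stayed lower. With the erythroid mean as a covariate Birc5 had a log2 fold change of -0.30 and an FDR of 0.179, and 24 genes were below 0. With sex as a covariate Birc5 had -0.51 and an FDR of 0.014. The count of genes that passed was 0 without control replicate 1, control replicate 4 or mutant replicate 3, and 5, all lower, without mutant replicate 2. It was 6 with the Wald test of DESeq2. The share of all genes that passed in these refits is not given here, so their counts have no background beside them.

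**Figure D2:**
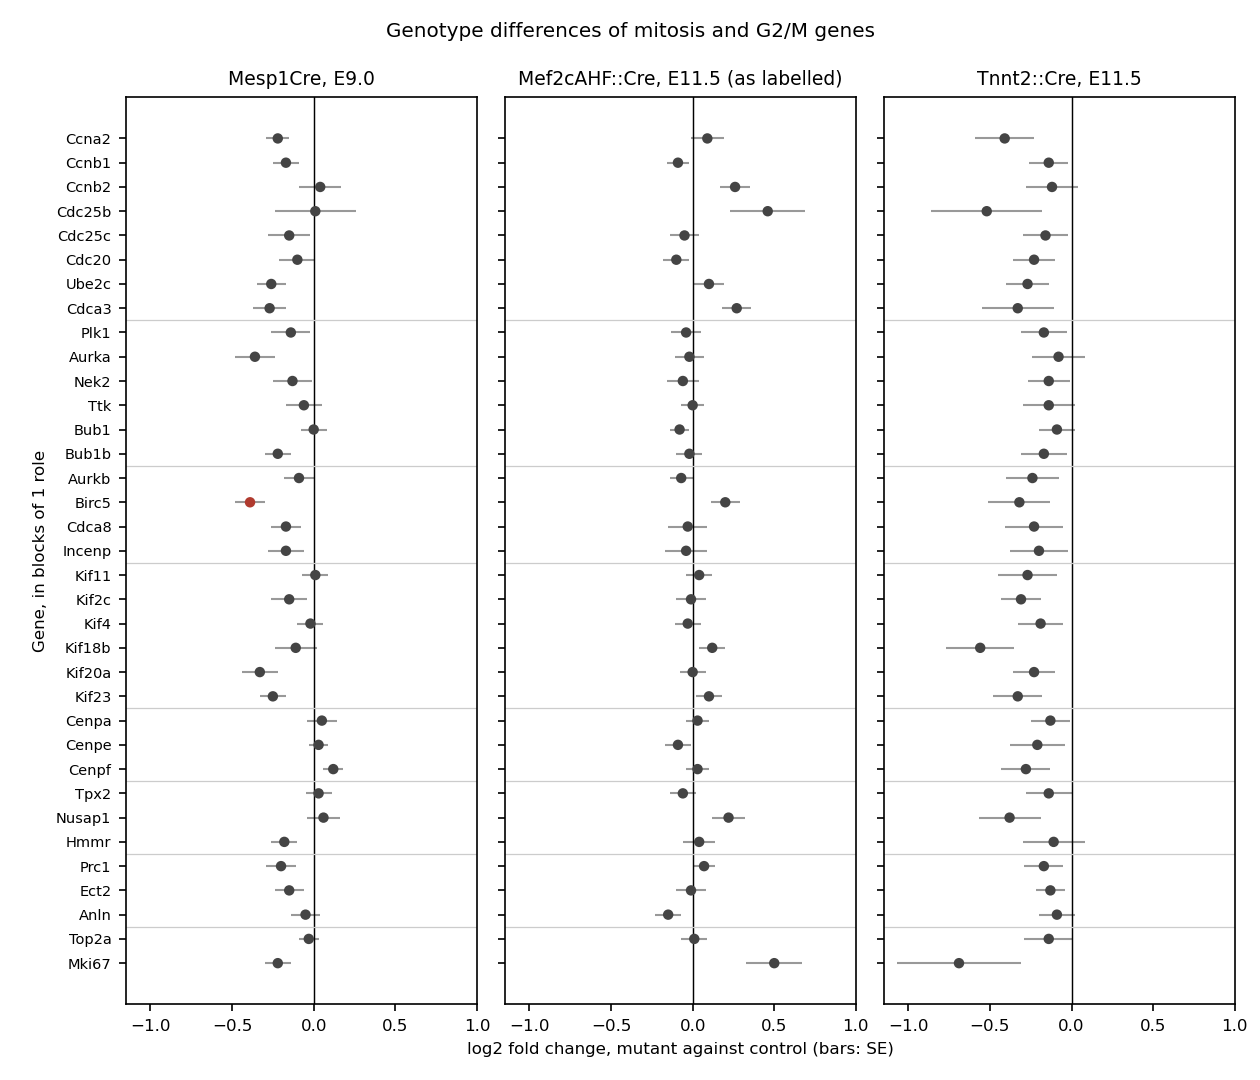
Log2 fold change (x axis) of each of the 35 genes (y axis, in blocks of 1 role) in mutant against control libraries of each Cre line, with the SE as bars and genes past an FDR of 0.05 in red. In Mesp1Cre Birc5 alone is red and 26 genes lie below 0, in Mef2cAHF::Cre by the labels 19 lie below 0, and in Tnnt2::Cre all 35 lie below 0 with none past the FDR.

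In Mef2cAHF::Cre the question was whether deletion in anterior heart field precursors moved these genes in the right ventricle and outflow tract. None of the 35 passed an FDR of 0.05, against 2.85% of 16920 genes tested. At an unadjusted p under 0.05 there were 3, all higher in the libraries labelled mutant (9.66% of all genes were). The Wald test of DESeq2 passed 1, Mki67, and its share of all genes is not given here. By the labels 16 genes were above and 19 below 0 (51.2% of all genes were below) and by the column names 19 above and 16 below, while on the deposited FPKM, where the median of all genes lay at -0.13, 29 were below 0 by the labels. The median log2 fold change was 0, with -0.01 over all genes. In 3 genes the groups did not overlap. Cdca3 and Ccnb2 lay higher in the libraries labelled mutant (13% of all genes did), and Anln, the gene of the contractile ring protein anillin, lay lower (10.6% did; log2 fold change -0.15, SE 0.08, FDR 0.35).

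The 3 genes of smallest p were Mki67, Cdca3 and Ccnb2. Mki67 had 1553.8, 1407.3 and 1107.8 CPM in the libraries labelled mutant and 990.6, 750.7 and 1133.3 in those labelled control. Replicate 3 labelled control thus lay above replicate 3 labelled mutant, and the log2 fold change was 0.50 (SE 0.17, FDR 0.157). Cdca3, a trigger of mitotic entry through the degradation of WEE1, had 35.8, 34.4 and 34.5 CPM in the libraries labelled mutant and 28.9, 25.6 and 32.1 in those labelled control (log2 fold change 0.27, SE 0.09, FDR 0.166). For Ccnb2, cyclin B2, the values were 58.3, 50.8 and 47.5 CPM against 41.6, 45.3 and 43.7 (log2 fold change 0.26, SE 0.09, FDR 0.171). By the column names each of the 3 would be lower in mutants by the same amount. The 6 kinases lay between -0.08 and 0.00, and of the other pathway lists, with 80 genes tested, 0 passed the test while 6 had an unadjusted p under 0.05, where 17.9% of all genes did.

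Erythroid genes moved the same way as these 3, with 12 of 13 higher in the libraries labelled mutant and 2 past the test, Hba-a1 and Hbb-b1. The mean log2 CPM of the list ran from 7.57 to 8.55 in libraries labelled mutant and from 5.93 to 7.65 in those labelled control. Mitochondrial genes took 30.1% to 30.7% of reads in libraries labelled mutant and 24.8% to 28.2% in those labelled control, without overlap. Their part in the differences was not tested beyond a fit without hemoglobin and mitochondrial genes. In that fit Mki67, Cdca3 and Ccnb2 stayed higher in the libraries labelled mutant. With the erythroid mean as a covariate Mki67 had a log2 fold change of 0.06 (FDR 0.861), and 29 of the 35 genes were below 0. Labelled control replicate 2, the only male of this line, had both the lowest erythroid mean and the lowest mean of the 35 genes (log2 CPM 6.11, against 6.22 to 6.37 in the other libraries).

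Deletion in cardiomyocytes was compared at E11.5 in Tnnt2::Cre whole hearts. None of the 35 genes passed an FDR of 0.05, against 0.293% of 17045 genes tested, and none passed by the Wald test of DESeq2; 3 had an unadjusted p under 0.05, all lower, where 5.72% of all genes were lower at that p. All 35 had a fitted decrease, against 49.3% of all genes, with a median log2 fold change of -0.20 against 0, and 32 of 35 on the deposited FPKM, where the median of all genes lay at 0.11. The groups did not overlap in 2 genes, Kif2c and Ect2, both lower in mutants (7.2% of all genes were).

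The mutants differed among themselves more than the groups did. The mean log2 CPM of the 35 genes was 6.61 in mutant 1, 6.01 in mutant 2 and 6.15 in mutant 3, and 6.53, 6.57 and 6.41 in the controls. In mutant 2 all 35 genes and in mutant 3 33 genes lay below each control, where 30.3% and 27.3% of all genes did. In mutant 1 only 2 genes lay below each control (25.3% of all genes did), and 20 lay above each control (30.2% of all genes did). Mutant 1 thus had the highest mean of the line and the other mutants the lowest.

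Kif2c had 25.4, 20.2 and 24.8 CPM in mutants and 29.9, 28.2 and 28.3 in controls (log2 fold change -0.31, SE 0.12, FDR 0.356). Kif18b, a kinesin that shortens astral microtubules, had 58.2, 30.5 and 34.5 CPM in mutants and 60.6, 63.4 and 55.6 in controls (log2 fold change -0.56, SE 0.21, FDR 0.364). Ccna2 had 261, 153 and 189 CPM in mutants and 260, 281 and 250 in controls (log2 fold change -0.41, SE 0.18, FDR 0.413). In the last of these mutant 1 is among the controls, and in Kif18b it lies above control 3. The widest spread was in Mki67, with 1310, 432 and 525 CPM in mutants and 1270, 1420 and 911 in controls (log2 fold change -0.69, SE 0.38, FDR 0.518).

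Without mutant 1, 8 of the 35 genes passed an FDR of 0.05, all lower, where 3.32% of 17487 genes passed in that direction and 5.12% in either. They were Mki67 (log2 fold change -1.34, SE 0.20, FDR 0.0076), Cdc25b (-1.07), Kif18b (-0.89), Cdca3 (-0.65), Nusap1 (-0.65), Ccna2 (-0.64), Birc5 (-0.61) and Cdca8 (-0.49, SE 0.11, FDR 0.0282). Nusap1 binds spindle microtubules and Cdca8 codes for borealin of the passenger complex. The median log2 fold change was then -0.37. Mutant 1 was singled out by its high values in these same genes. Lower values without it follow in part from that choice, and this fit is no independent test of them. Without mutant 2 or mutant 3, 0 genes passed, and 32 and 35 lay below 0.

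Erythroid RNA followed nearly the same order of libraries. The erythroid mean log2 CPM was 9.92, 7.25 and 8.32 in mutants 1 to 3 and 9.75, 10.2 and 9.49 in controls, and hemoglobin genes took 11.8%, 2.07% and 4.37% of reads in the mutants and 11.7%, 14.6% and 9.05% in the controls. All 13 erythroid genes had a fitted decrease and 0 passed the test, with 0 at an unadjusted p under 0.05. With the erythroid mean as a covariate the median log2 fold change of the 35 genes was 0.04, 11 lay below 0 and 0 passed. Kmt2d did not follow this order, at 114 CPM in mutant 1, 119 in mutant 2 and 122 in mutant 3, and 166, 155 and 125 in controls. Among the other pathway genes 12 of 12 kinetochore and checkpoint, 15 of 16 condensin and cohesin and 19 of 20 other mitotic genes had fitted decreases, and 0 of the 80 in the 6 lists passed the test.

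**Figure D3:**
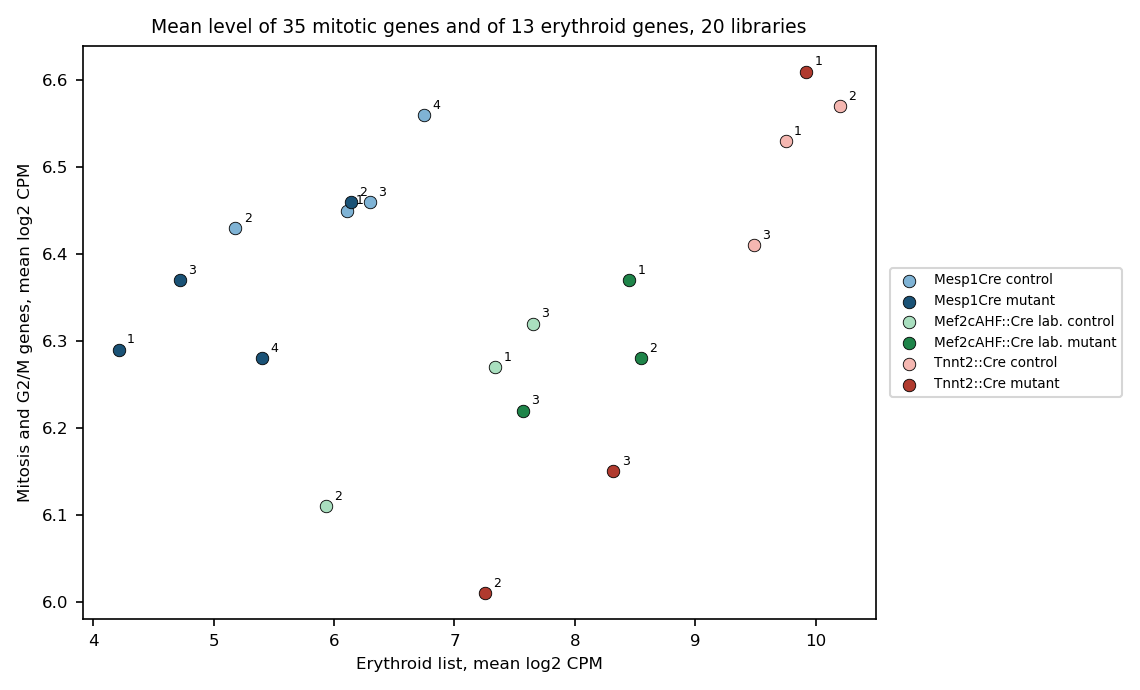
Mean log2 CPM of the 35 genes (y axis) against the mean log2 CPM of the 13 erythroid genes (x axis), 1 point per library, coloured by group (lab.: as labelled) and numbered by replicate. Tnnt2::Cre mutants 2 and 3 are low on both axes and mutant 1 sits with the controls of its line; Mef2cAHF::Cre labelled control 2 is low on both as well.

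The part of blood RNA in these differences was not tested beyond that covariate, itself measured in the same libraries, and a further fit. That fit left out hemoglobin and mitochondrial genes but kept other red cell genes, and in Tnnt2::Cre 0 of the 35 genes passed in it. Within each line the library with the lowest erythroid mean was also the lowest or next to lowest in the mean of the 35 genes. The order was not strict, since Mesp1Cre mutant 3 had an erythroid mean of 4.72 and a gene mean of 6.37, and mutant 4 had 5.4 and 6.28. Mesp1Cre controls, at E9.0, had erythroid means of 5.18 to 6.75 and gene means of 6.43 to 6.56. Tnnt2::Cre controls had erythroid means of 9.49 to 10.2 and gene means of 6.41 to 6.57. Stage, Cre line and sequencing group differ between these controls, so they cannot be compared on this point.

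Differences between the lines were tested as interactions in 1 fit of all 20 libraries and 18391 genes. None of the 35 genes passed an FDR of 0.05 in any of the 5 contrasts. For Mesp1Cre against Tnnt2::Cre, where 3.04% of all genes passed, 1 gene had an unadjusted p under 0.05 (8.68% of all genes did in its direction): Cenpf, with a difference of log2 fold changes of 0.38 (SE 0.13, FDR 0.125). For Mesp1Cre against Mef2cAHF::Cre by the labels 11.3% of all genes passed, and 5 of the 35 had an unadjusted p under 0.05, all lower in Mesp1Cre (13.6% of all genes were), led by Birc5 (-0.60, SE 0.20, FDR 0.052). On log2(FPKM + 0.1), where the median of all genes lay at 0.27, the direction turned, and 5 of the 35 passed the FDR as higher in Mesp1Cre. By the column names 1.63% of all genes passed, and 3 of the 35 had such a p, all lower (8.36% of all genes were). For Mef2cAHF::Cre by the labels against Tnnt2::Cre 3.19% of all genes passed, and 9 of the 35 had such a p, all higher (7.85% of all genes were), led by Mki67 (1.18, SE 0.39, FDR 0.115). By the column names 0% of all genes passed there, with 2.57% of all genes and 0 of the 35 at an unadjusted p under 0.05. By the labels the fold changes of Mef2cAHF::Cre and Tnnt2::Cre, which share no libraries, ran against each other across the 35 genes (Pearson r = -0.74), and by the column names together; genes are not independent replicates, and Mki67 lies at the end of both ranges. Without Tnnt2::Cre mutant 1 the counts that passed were 5 for Mesp1Cre against Tnnt2::Cre and 10 for Mef2cAHF::Cre by the labels against Tnnt2::Cre. The count for Mesp1Cre against Mef2cAHF::Cre by the labels was 3. That contrast holds no Tnnt2::Cre library, so its change came through steps of the fit that all libraries share. Mutant 1 was singled out by its values in these same genes, and the share of all genes in these refits is not given here.

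**Figure D4:**
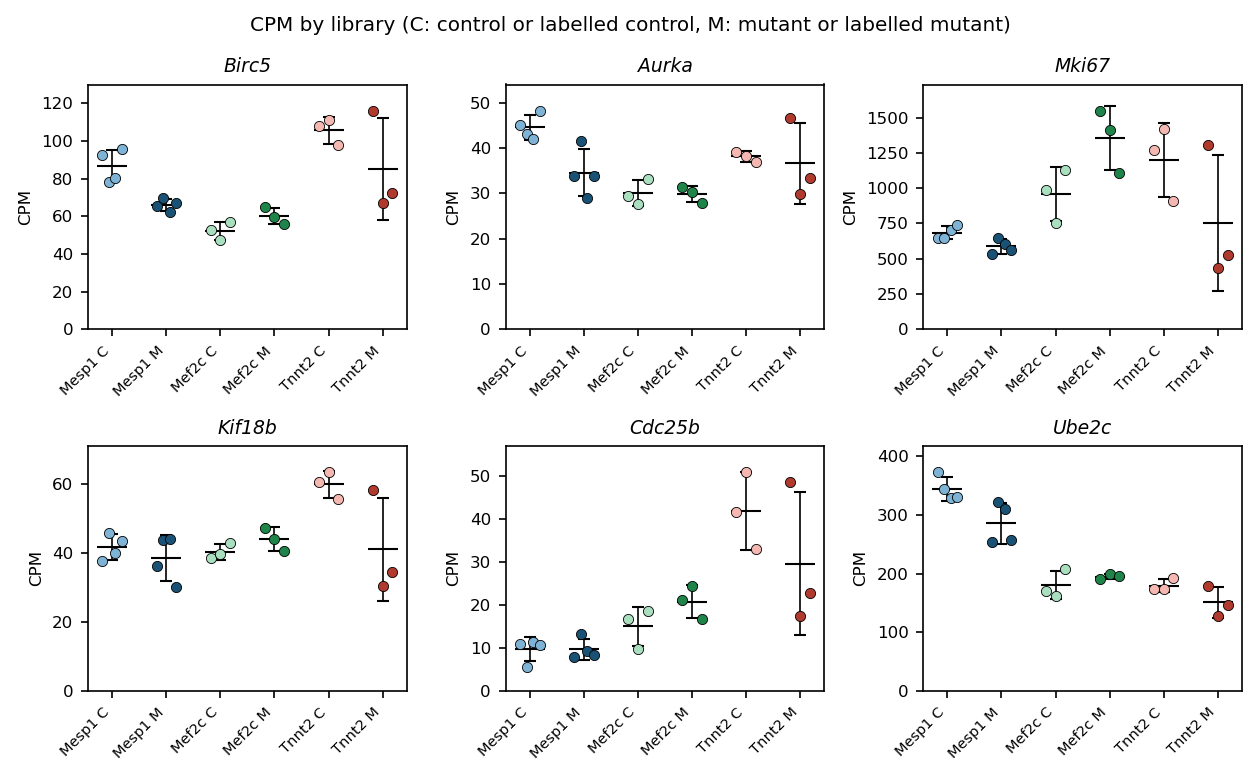
CPM of 6 genes (y axes, from 0) in each library, 1 point per library, by group on the x axis, with the mean and SD as bars. Birc5 and Aurka do not overlap between Mesp1Cre controls and mutants, the Tnnt2::Cre mutant group is split in Birc5, Mki67, Kif18b and Cdc25b, and Cdc25b and Ube2c differ between the E9.0 hearts of Mesp1Cre and the E11.5 hearts of Tnnt2::Cre.

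Stage was compared between whole hearts, E11.5 of Tnnt2::Cre against E9.0 of Mesp1Cre, where stage cannot be told apart from the Cre line and the sequencing group. In controls 18 of the 35 genes passed an FDR of 0.05, against 38.3% of 16697 genes, with 7 higher and 11 lower at E11.5; 19.6% of all genes passed as higher and 18.8% as lower. The set therefore split, with a median log2 fold change of -0.11 and a range from -0.97 to 2.09. Cdc25b, Mki67, Ccnb2, Kif18b, Cdca3, Nek2 and Cdc20 were higher. Ube2c, Hmmr, Cenpe, Ttk, Bub1, Cenpf, Top2a, Kif20a, Anln, Ccnb1 and Ect2 were lower.

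Cdc25b, the phosphatase that first activates CDK1 at the centrosome, had 10.9, 5.42, 11.4 and 10.7 CPM in E9.0 controls and 41.7, 50.9 and 32.9 in E11.5 controls. The stages were far apart, with a log2 fold change of 2.09 (SE 0.23, FDR 5.31e-05). Cdc25c, the other CDC25 phosphatase of the set, had 19.3 to 26.6 CPM at E9.0 and 20.6 to 21.9 at E11.5 (log2 fold change -0.15, SE 0.13, FDR 0.373). Ube2c had 373, 344, 329 and 330 CPM at E9.0 and 173, 173 and 192 at E11.5 (log2 fold change -0.97, SE 0.08, FDR 8.22e-06). Its partner Cdc20, the activator of the APC/C, was slightly higher at E11.5 (log2 fold change 0.28, SE 0.10, FDR 0.0467).

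Both B-type cyclins passed, in opposite directions. Ccnb2 had 37.9, 43.5, 45 and 51 CPM at E9.0 and 62.7, 71.7 and 68.7 at E11.5 (log2 fold change 0.58, SE 0.11, FDR 0.00155). Ccnb1, cyclin B1, had 146, 139, 160 and 165 CPM at E9.0 and 136, 122 and 131 at E11.5 (log2 fold change -0.27, SE 0.08, FDR 0.0265). Mki67 had 645, 645, 706 and 741 CPM at E9.0 and 1270, 1420 and 911 at E11.5 (log2 fold change 0.78, SE 0.13, FDR 9e-04).

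Next to Ube2c, the largest decreases past the test were in Hmmr and Cenpe. Hmmr, which codes for a spindle assembly factor, had 174, 174, 171 and 184 CPM at E9.0 and 123, 129 and 104 at E11.5 (log2 fold change -0.60, SE 0.09, FDR 0.000312). Cenpe, a kinesin that carries chromosomes to the equator, had 188, 183, 189 and 202 CPM at E9.0 and 137, 140 and 116 at E11.5 (log2 fold change -0.58, SE 0.09, FDR 0.000369). Cenpa, the histone variant of centromeres, did not pass (0.09, SE 0.09, FDR 0.452). The passenger complex lay slightly above 0 in 4 of 4 genes, from 0.06 to 0.25, with 0 past the test.

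In mutants 8 of the 35 genes passed between the stages, against 35.9% of 16617 genes, with 1 higher (18.8% of all genes) and 7 lower (17.1%). All 8 had passed in controls in the same direction: Cdc25b (log2 fold change 1.59, SE 0.33, FDR 0.00476), Ube2c (-0.95, SE 0.14, FDR 0.000834), Cenpe (-0.79), Cenpf (-0.74), Ttk (-0.51), Bub1 (-0.50), Hmmr (-0.50) and Top2a (-0.44). The comparisons of controls and of mutants share no libraries, and 29 of 35 genes had the same sign in both (Pearson r = 0.94 across genes, to which Cdc25b contributes most by its distance from the rest). Mki67, higher by 0.78 in controls, had 0.34 in mutants (SE 0.31, FDR 0.424), with the split of Tnnt2::Cre mutants described above. The stage difference was not shown to differ between genotypes, with 0 of 35 genes past the FDR of that contrast and 1 at an unadjusted p under 0.05. It is the same contrast as Mesp1Cre against Tnnt2::Cre above and not a further test. Without Tnnt2::Cre mutant 1, a library singled out by its high values in these same genes, the count in mutants was 13, with 1 higher and 12 lower. The share of all genes in that refit is not given here.

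**Figure D5:**
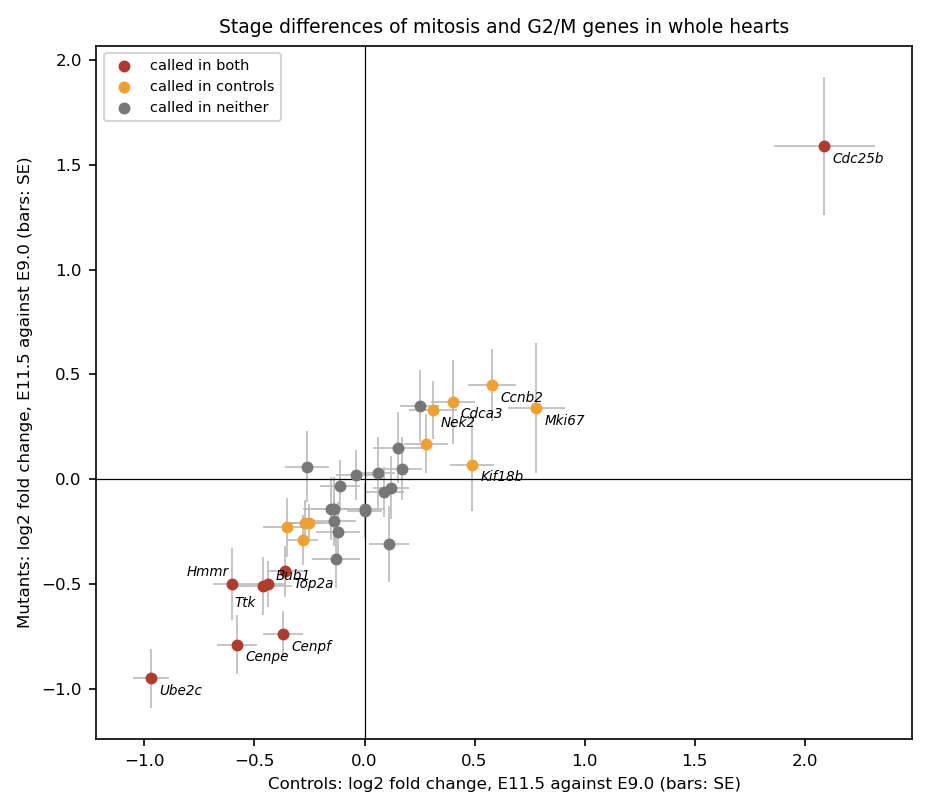
Log2 fold change of each of the 35 genes between E11.5 and E9.0 whole hearts in controls (x axis) and in mutants (y axis), with SE bars, coloured by whether the gene passed an FDR of 0.05. Cdc25b stands far to the upper right and Ube2c at the lower left, and the 8 genes that passed in both lie in 1 direction each.

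Between the stages in controls 38.3% of all genes passed, 19.6% as higher and 18.8% as lower. The counts in the other pathway lists are to be read beside these shares. In controls 3 of 9 Cdk1 control genes passed, led by Pkmyt1, the kinase that inhibits CDK1 (0.79, SE 0.20, FDR 0.00812). Of 12 kinetochore and checkpoint genes 4 passed, all lower, led by Zwilch (-0.43), Mad2l1 (-0.38) and Spc24 (-0.38). Of 11 APC/C genes 2 were higher, Anapc5 (0.75) and Anapc2 (0.45), and 3 lower, led by Cdc27 (-0.66, SE 0.08, FDR 8.52e-05). Of 16 condensin and cohesin genes 3 were higher and 6 lower, with Pttg1, the gene of securin, at -0.76 and the condensin II genes Ncaph2 at 0.75 and Ncapg2 at 0.60. Of 12 tested G2/M regulators 3 were higher, led by Rbl2 (1.34, SE 0.13, FDR 1.85e-05) and Rbl1 (0.64), and 2 lower, Nfya (-0.50) and Lin9 (-0.39). Of 20 other mitotic genes 3 were higher and 4 lower, led by Pbk (0.98), Kif22 (0.59) and Kif20b (-0.59), and of 6 tested CDK inhibitors 1 passed, Cdkn2c, which was higher (4.26, SE 0.25, FDR 8.24e-07).

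The RNA of cell type markers differed between the stages. All 13 erythroid, 5 epicardial and 6 mesenchymal genes were higher at E11.5 in controls, with median log2 fold changes of 3.30, 3.00 and 1.93 and all past the test. Of 10 cardiomyocyte genes 2 were higher and 3 lower past the test. The erythroid mean log2 CPM was 5.18 to 6.75 at E9.0 and 9.49 to 10.2 at E11.5, and the part of cell content in the stage differences was not tested.

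The counting is not stated to use strand, and some members share exons or sequence with other genes. On the mm9 annotation, exons of another gene on the opposite strand cover 32.3% of the exonic bases of Kif20a (Cdc23) and 22.8% of Ube2c (Tnnc2). They cover 15.1% of Kif4 (Pdzd11) and 14.6% of Ccna2 (Exosc9). The deposited feature lengths are shorter than these exons, at 2143 against 3893 bases in Kif20a and 2008 against 2600 in Ube2c. In Kif4 they are 4682 against 5514 and in Ccna2 2998 against 3510. The shared bases thus appear to be left out of the counted features, and how far shared reads remain was not tested. Cdc23 was lower at E11.5 (log2 fold change -0.46), as was Kif20a (-0.35), and a link through shared reads was not tested. Of windows of 100 exonic bases, 34.7% in Ccnb1, 27.3% in Cdc20, 24.1% in Plk1, 14.5% in Nek2 and 14% in Ube2c match another place in the genome at 95 or more bases, and the values of these genes are uncertain to that extent. Birc5, with 6.25% of such windows and no overlapping gene, Aurka, with neither, and Mki67, with 2.75%, are less exposed.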

How the data were processed

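RNA of embryonic mouse hearts was sequenced in 20 libraries (6 groups, 3 Cre lines). Per the labels and the paper, the authors mapped the reads to mm9 (the submitters' processing notes name TopHat2 2.0.8b) and counted them per gene by featureCounts, whose version and strand setting are not given in the sources used here. The deposited table holds raw counts of 33495 genes. It also holds FPKM values, which the authors computed with USeq. Its name credits the counts to USeq as well, so which program counted the reads is not settled here. From it 40 columns were read here, and 20 with log2 values, variance-corrected by USeq, were left aside. The paper names TruSeq kits and the labels NuGEN kits with linear amplification, which can shift the relative level of transcripts.

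Each comparison was fitted to the counts in R 4.3.3 by edgeR 4.0.16 (filterByExpr, TMM, estimateDisp, quasi-likelihood F test, Benjamini-Hochberg FDR under 0.05 over all genes), and differences between lines as interactions in 1 fit of 6 groups. The fits were also run on simulated counts. Those had the same spread for all genes, smaller than that fitted in Mesp1Cre and Mef2cAHF::Cre, and no outlying library. The simulation therefore does not show how the fits perform on these data. An SE was taken as the absolute log2 fold change over the root of F. CPM are after TMM over all libraries, log2 CPM used a prior count of 2, and at least 10 CPM of Y-linked genes was taken as male. Depth ran from 21727258 to 45341870 reads and the lowest count of a member was 132. Samples were grouped by titles and genotype labels.

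The 35 genes, the lists of other pathway genes and of cell type markers, the tests and the alternatives were chosen with earlier results of these data known. By rule, the genes past the FDR in a genotype comparison, at most 8 and at least the 3 of smallest p, are given in full, as are the 6 largest called in the stage comparison of controls, and at most 3 called genes of each pathway list; other genes were named after their values were seen. Alternatives were DESeq2 1.42.0 (size factors; Wald test), all genes with at least 1 count, hemoglobin and mitochondrial genes left out, the 6-group fit, replicate number or animal code as a block, limma-trend (limma 3.58.1) on log2(FPKM + 0.1) and log2(FPKM + 1), erythroid mean or sex as a covariate, a fold change of at least 1.5, each replicate left out, and, for Mef2cAHF::Cre, genotypes as the column names give them. Exonic windows of 100 bases were mapped to the mm9 genome with minimap2 2.31-r1302.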

Additional observations from a re-analysis of the deposited data

Results flagged for a closer look

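In groups of 4 libraries, a library was marked when its gap to the nearest other library was large against the range of the group (Dixon's criterion at 95%). Of 72 tests 6 were marked, where chance marks about 5% of them. In Mesp1Cre controls, Cdc25b had 5.42 CPM in replicate 2, against 10.7 to 11.4 in the others, and Ect2, the exchange factor that activates RhoA for cytokinesis, had 102 CPM in replicate 4, against 85 to 85.7. In Mesp1Cre mutants, replicate 2 had 43.1 CPM of Cdc20, against 36.4 to 37.3, and 55.4 CPM of Incenp, against 45 to 46.2. Replicate 4 had 17.8 CPM of Cdc25c, against 21.3 to 21.9, and 97.9 CPM of Tpx2, the activator of Aurora A on the spindle, against 112 to 115. Groups of 3 were not tested in this way, so the position of Tnnt2::Cre mutant 1 carries no such mark.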

How the results depend on the processing

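By the column names each sign in Mef2cAHF::Cre reverses, Mki67, Cdca3 and Ccnb2 among them. Apart from that, the 3 genes of smallest p in each line and the 6 largest called between stages kept their direction in each recomputed fit. The median of the set in Mesp1Cre turned from -0.14 to 0.02 on FPKM and in Tnnt2::Cre from -0.20 to 0.04 with the erythroid covariate. In Mesp1Cre the count that passed was 1, and 6 with the DESeq2 Wald test, 3 in the 6-group fit, 0 with the erythroid covariate, 0 with a fold change of at least 1.5, and 0 to 5 with 1 library left out. In Mef2cAHF::Cre by the labels it was 0, and 1 with the DESeq2 Wald test and 1 with all genes of at least 1 count; in Tnnt2::Cre it was 0, and 0 to 8 with 1 library left out. Between stages the controls gave 18 and with a fold change of at least 1.5 they gave 4. The mutants gave 8, and 14 in the 6-group fit, 14 on log2(FPKM + 0.1), 14 on log2(FPKM + 1), 4 with a fold change of at least 1.5, and 6 to 13 with 1 library left out. The interaction of Mesp1Cre against Mef2cAHF::Cre by the labels gave 0, and 1 with the DESeq2 Wald test, 1 with all genes of at least 1 count, 5 on log2(FPKM + 0.1), all higher, with the median of all genes at 0.27, and 0 to 3 with 1 library left out. That of Mef2cAHF::Cre by the labels against Tnnt2::Cre gave 0, and 1 with all genes of at least 1 count and 0 to 10 with 1 library left out, and that of Mesp1Cre against Tnnt2::Cre gave 0, and 0 to 5. The largest of these ranges came without Tnnt2::Cre mutant 1, apart from Mesp1Cre, where it was mutant 2. The causes were not tested. Apart from Tnnt2::Cre without mutant 1, the share of all genes that passed in these refits is not given here. Their counts therefore have no background beside them.

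Same-numbered libraries of a line correlated in their deviations from the group means by -0.04 to 0.18, and the labels do not say that a number marks a shared litter or day, so the replicate numbers were not taken as pairs. In Mesp1Cre, same-numbered controls and mutants share a code in the library names (replicates 1 and 2 share 1 code), whose meaning is not stated; with that code as a block 1 gene passed, Birc5 (FDR 0.0252). With the number as a replicate block the counts were 1, 0 and 0 in the 3 lines and 14 and 7 between stages. Not every library correlated best with its own number. Hmmr, which passed between the stages in mutants, had an FDR of 0.115 under the block. Among values of single genes with all libraries in the fit, 180 kept their side of the threshold, 5 passed it newly and 4 no longer passed.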
